A study of Mus musculus with 157 samples.

Results

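Megakaryocyte progenitors, labelled MkP, were compared with MEP, in the usual naming of blood cells the progenitors that can give rise to both megakaryocytes and red cells. The libraries were chosen by label: the MkP and MEP libraries of a wild-type mouse atlas, 8 of the 157 samples of the series. Each type had 2 input libraries of total RNA and 2 libraries of RNA precipitated (IP) with an antibody against N6-methyladenosine (m6A). Both types were labelled wild type and untreated. Each precipitation used 0.5 µg of antibody and 100 ng of RNA, per the labels' protocols. The sources used here do not give strain, age, sorting gates or the number of animals. The p-values therefore rest on the spread between libraries that may be technical copies of each other. Another pair of groups, the wild-type, untreated MkP and MEP libraries that accompany a Mettl3 knockout experiment (2 input and 2 IP libraries per type), shares no library with the atlas and was analysed in the same way. It is called the second set.

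Megakaryocytes are the large bone marrow cells that shed platelets. Their progenitors are known to carry the integrin subunit CD41, the product of Itga2b, and to prepare the adhesion receptors, granule proteins and signalling enzymes of platelets. Red cell precursors instead make haem, globin and a membrane skeleton. GATA1 acts in both lineages, FLI1 is associated with the megakaryocyte side and KLF1 with the red cell side. m6A is an abundant internal mark of messenger RNA. It is written by a complex built on METTL3 and METTL14 and read by proteins of the YTH and IGF2BP families, among others.

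Depth was 20.3 to 21.5 M reads in the 4 atlas inputs and 19.0 to 22.6 M in the 4 IP libraries. It was 3.54 to 19.4 M in the second set's inputs and 8.10 to 22.9 M in its IP libraries. Replicates correlated across genes at r = 0.969 to 0.989 in the atlas groups, and at 0.845 between the IP MkP libraries of the second set. The 10 most abundant genes took 12.0% and 13.9% of the MkP inputs and 6.29% and 6.06% of the MEP inputs. Input values are the authors' normalised signal, and a difference is MkP minus MEP of log2(value + 1), which understates changes of genes near 0. A gene was called when its limma p-value, adjusted by Benjamini-Hochberg over all genes tested, was at most 0.05.

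Both atlas MkP libraries carried markers of other blood cells at high levels. A list of 21 granulocyte and monocyte markers took 7.20% and 5.47% of the MkP input signal, against 0.00993% and 0.00647% in MEP. The same list took 19.7% and 13.3% in the atlas libraries labelled GMP and 3.51% and 2.29% in those labelled CMP. All 21 were called higher in MkP, as were 14.2% of all genes tested, with a median log2 difference of 8.67. Mpo, the myeloperoxidase of granulocyte precursors, read 573183 and 442750 in MkP and 312 and 225 in MEP. The mast cell and basophil list took 0.504% and 0.573% of the MkP inputs and 0.00161% and 0.000804% of the MEP inputs, with 8 of its 11 tested members called higher. Cma1 and Tpsb2, proteases of mast cells, were listed at 0 in all 4 libraries. In the IP libraries of MkP the granulocyte and monocyte list took 2.96% and 2.92%.

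In the second set that list took less of the MkP inputs, at 0.611% and 0.579%, and more of the MEP inputs, at 0.149% and 0.0261%, than in the atlas. Both shifts enter its smaller difference there. There 3 of its 21 members (Spi1, Csf3r and Cd68) were called higher, beside 6.27% of all genes tested in that set. The median difference of the list was 2.78. The mast cell and basophil list took 0.0181% and 0.0206% of those MkP inputs. Smaller lists also took larger shares of the atlas MkP inputs than of MEP, though their members did not all move that way. Macrophage markers took 0.00497% and 0.005% of the atlas MkP inputs and 0.00143% and 0.000961% of MEP, and 5 of 9 were called higher, with a median of 3.85 (3.26 with groups at 0 set to a floor of 3 reads per library). Endothelial and stromal markers took 0.00317% and 0.00166% of MkP and 0.000207% and 0.000283% of MEP, with 2 of 9 called higher. Their median was 0.395 (0.0 with the floor), and 5 of the 9 had a group at 0. Lymphoid markers took 0.0187% and 0.0231% of MkP and 0.00624% and 0.00585% of MEP, with 2 of 16 called higher and 4 lower. Their median was negative, at -1.07. Among all genes tested in the atlas, 14.2% were called higher and 14.6% lower. The part of these markers in the differences below was not tested, and the second set's values stand beside the atlas values for that reason. In bulk samples fewer cells of a type and less RNA per cell cannot be told apart.

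**Figure D1:**
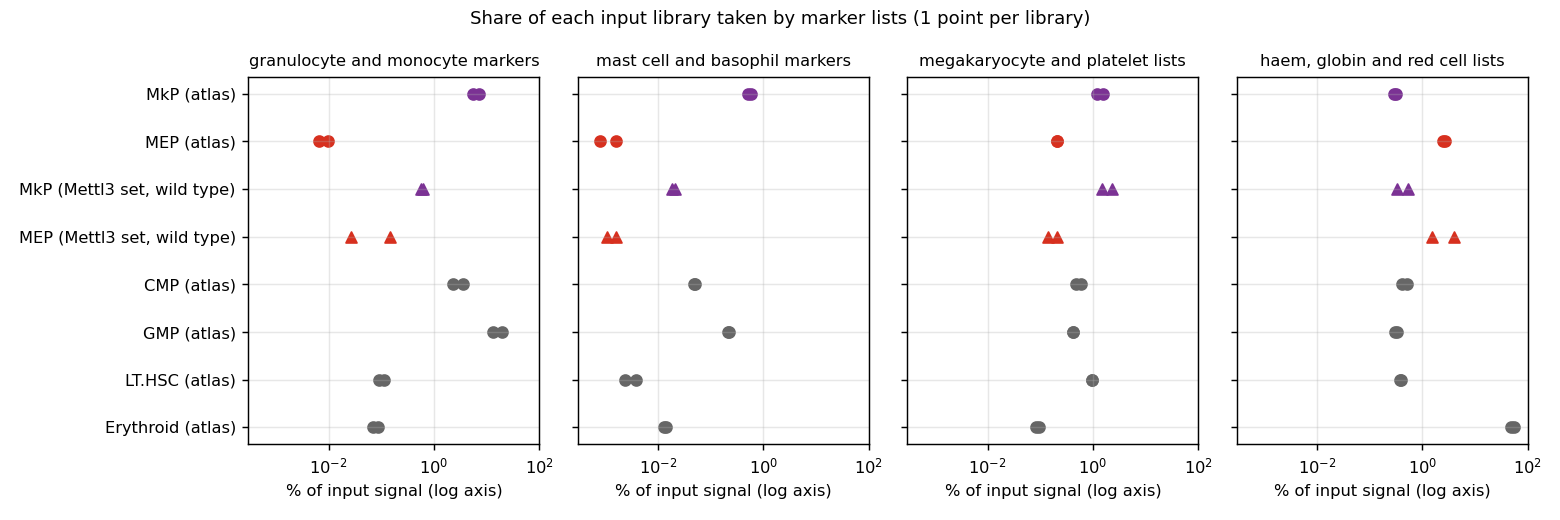
Share of each input library (percent, log axis) taken by 4 groups of marker genes, with 1 point per library; circles are atlas libraries and triangles are the second set. The atlas MkP libraries stand at 7.20% and 5.47% for granulocyte and monocyte markers, between CMP and GMP, while MkP of the second set stands at 0.611% and 0.579%.

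The megakaryocyte and red cell lists followed the labels in their shares. The 4 lists of megakaryocyte and platelet genes together took 1.17% and 1.53% of the atlas MkP inputs and 0.207% and 0.204% of the MEP inputs. The second set gave 2.34% and 1.47% of MkP and 0.208% and 0.139% of MEP. The haem, globin and red cell lists went the other way, at 0.318% and 0.288% of MkP and 2.63% and 2.51% of MEP in the atlas. The second set gave 0.331% and 0.538% of MkP and 1.49% and 3.93% of MEP. The types did not overlap in any of these shares. The granulocyte and monocyte list took more of the atlas MkP inputs than the megakaryocyte and platelet lists did, at 7.20% and 5.47%. In the second set it took less of the MkP inputs than they did, at 0.611% and 0.579%.

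Across the atlas, 2435 of 17165 genes (14.2%) were called higher in MkP and 2514 (14.6%) lower. The median difference over all genes was -0.0751. Without MEP replicate 1 the count of lower genes was 1620. The same calls were recounted without the granulocyte and monocyte, mast cell and basophil, macrophage and lymphoid lists. Genes higher in GMP than in LT.HSC (long-term haematopoietic stem cells) were left out too. Among the 14170 genes left, 1712 were called higher and 2241 lower, with the p-values not adjusted anew (this set of genes was chosen after seeing the data). This filter need not take out every granulocyte gene. Chil3, which is outside those lists, overlapped between GMP (69.1 to 134) and LT.HSC (19.4 to 188). The second set had fewer calls: 943 of 15030 genes (6.27%) were called higher and 444 (2.95%) lower, with a median of 0.309. Those counts were 495 and 81 without MEP replicate 2, 508 and 127 without MkP replicate 2, and 572 and 218 without MEP replicate 1.

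Higher and lower genes recurred to different extents in the second set. Of 2393 genes called higher in the atlas and tested in both sets, 2005 (83.8%) had a positive difference there, where 58.2% of all genes were positive. Of 2383 called lower, 1123 (47.1%) had a negative difference, against 40.2% of all genes. Genes called higher in both sets numbered 691, which is 28.9% of the atlas calls and 73.4% of the second set's. Those called lower in both numbered 260, or 10.9% of the atlas calls and 58.7% of the second set's. Of the 14444 genes tested in both sets, 4.78% were thus called higher in both and 1.8% lower in both.

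**Figure D2:**
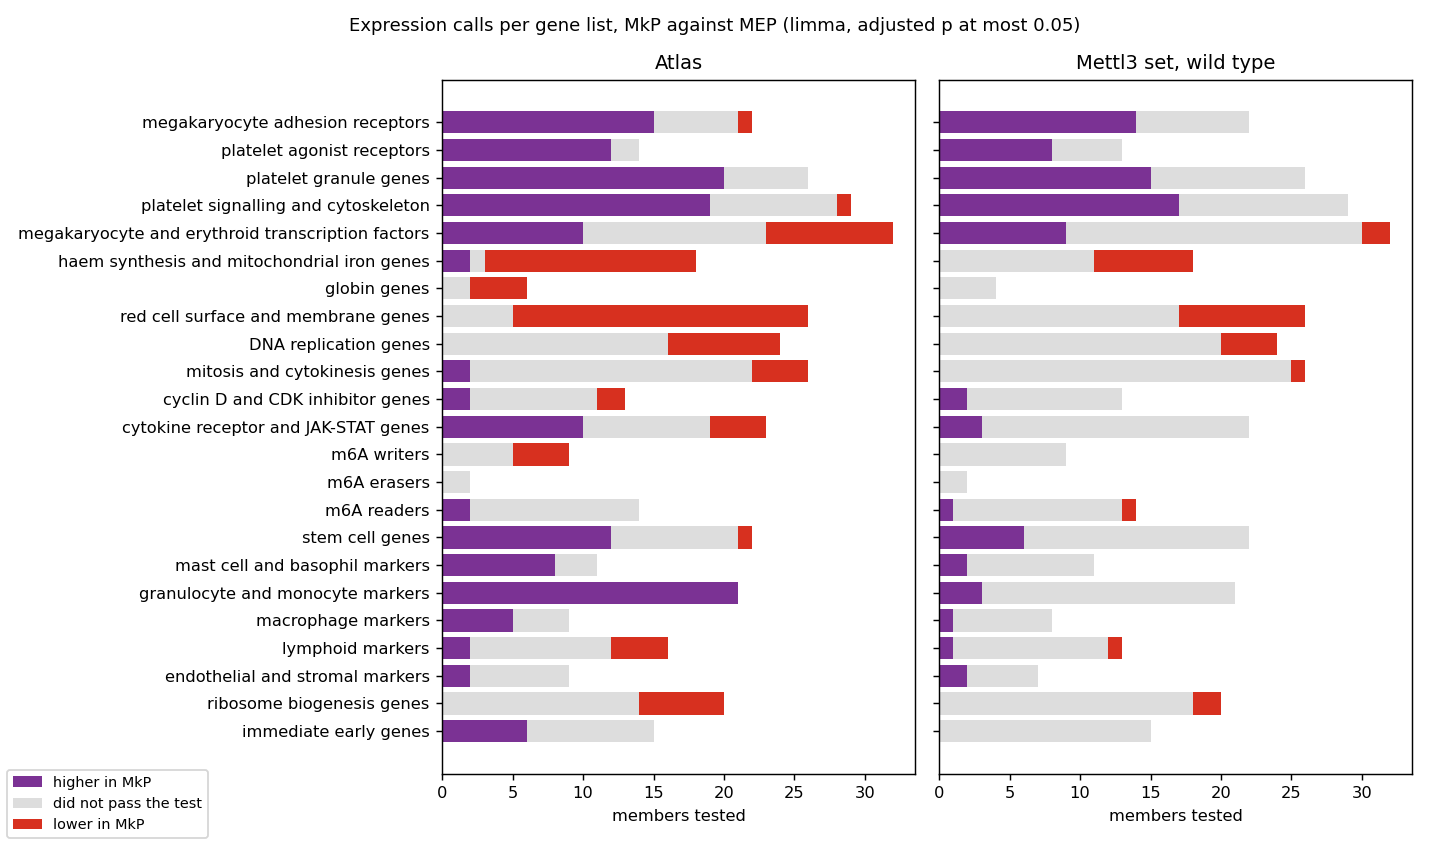
Number of tested members of each gene list called higher in MkP, called lower, or not passing the test, in the atlas (left) and in the second set (right, wild type of the Mettl3 experiment). The 4 megakaryocyte and platelet lists have 66 members called higher in the atlas and 54 in the second set. The granulocyte and monocyte list has 21 and 3. Of all genes tested, 14.2% were called higher in the atlas and 6.27% in the second set.

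Genes of the megakaryocyte surface were higher in MkP. Of 22 adhesion receptors and surface proteins, 15 were called higher and 1 lower, with a median difference of 2.59. Itga2b, the CD41 subunit of the fibrinogen receptor, read 6147 and 4793 in MkP and 56.3 and 54.6 in MEP, a difference of 6.59 (SE 0.58, limma adjusted p = 2.86e-09). In the second set it read 9030 and 5623 against 230 and 82.2, a difference of 5.68. Its partner Itgb3 read 203 and 200 against 6.90 and 1.05 in the atlas. Both MkP libraries lay above both MEP libraries for both genes in both sets.

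Further receptor genes were called in both sets. Cd9, a tetraspanin abundant on platelets, differed by 5.26 in the atlas (6708 and 11849 against 254 and 210) and by 5.26 in the second set. Gp1bb, the beta chain of glycoprotein Ib in the von Willebrand factor receptor, differed by 7.90 and 6.99, and Gp9 of the same receptor by 2.08 and 2.60. Gp5, another subunit of that receptor, read 3407 and 5180 in MkP and 1312 and 1076 in MEP and did not pass the test (difference 1.82, adjusted p = 0.144). Gp1ba, the ligand-binding chain, did not pass it either (difference 2.45, adjusted p = 0.0507). Selp (P-selectin), Treml1, Esam and Pear1 were called higher in both sets. Cd36, a scavenger receptor, was the member called lower in the atlas (2.06 and 4.37 against 61.1 and 65.7), and its second-set difference was -3.97 with an adjusted p of 0.241. In all, 13 of the 22 were called higher in both sets.

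Receptors through which agonists activate platelets were also higher, with 12 of 14 tested called and a median of 4.22 (4.07 with groups at 0 set to a floor of 3 reads per library). F2rl2, a receptor of the thrombin receptor family, read 2117 and 2876 in MkP and 5.84 and 6.83 in MEP. Its difference was 8.40 (SE 0.55), and 6.62 in the second set. P2rx1, an ATP-gated channel, differed by 6.84 and 7.90, and Tbxa2r, the thromboxane receptor, by 6.502 and 6.26. Clec1b, the receptor for podoplanin, read 253 and 659 in MkP and 0.531 and 0 in MEP. Of 13 members tested in both sets, 8 were called higher in both. P2ry12, a receptor for ADP, was called in the atlas at low levels (4.63 and 5.83 against 0 and 0) and differed by -0.16 in the second set, where its adjusted p was 0.968.

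Of 26 platelet granule genes tested, 20 were called higher and 0 lower by limma, with a median of 3.25 (2.76 with groups at 0 set to the floor). Pf4, the platelet factor 4 chemokine of alpha granules, read 16351 and 76286 in MkP and 31.9 and 36.8 in MEP. Its difference was 9.97 (SE 0.75, limma adjusted p = 6.16e-10), and 7.67 in the second set. The 2 atlas MkP libraries lay further apart for Pf4 than for Itga2b, and both lay above MEP. Ppbp, a chemokine precursor of the same granules, read 887 and 2688 in MkP and 0 and 0.525 in MEP. Serpine2, a protease inhibitor, differed by 7.76 and 6.25, and Rab27b, a GTPase of granule transport, by 5.49 and 5.80. Vwf, the von Willebrand factor gene, read 471 and 608 against 157 and 149, a difference of 1.80 (adjusted p = 0.0314) in the atlas and 3.87 in the second set. The atlas call of Vwf was lost when any 1 of the 4 libraries was left out (adjusted p from 0.0682 to 0.157). Of the 26 granule genes, 15 were called higher in both sets.

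Platelet signalling and cytoskeleton genes gave 19 of 29 called higher and 1 lower, with a median of 3.18. Plek (pleckstrin, a substrate of protein kinase C) differed by 7.33 and 6.48, Ptgs1 (cyclooxygenase 1) by 8.54 and 5.30, and Tbxas1 (thromboxane synthase) by 6.08 and 5.26. Rasgrp2, an exchange factor for the GTPase Rap1, read 2781 and 3577 against 88.2 and 68.3. Tubb1, the platelet beta tubulin, was called in the atlas (266 and 445 against 0.531 and 0), while its second-set difference was 0.92 with an adjusted p of 0.799. Myl9, a myosin light chain, differed by 7.29 in the atlas and by 1.21, without a call, in the second set. Gnaq, the alpha subunit of Gq, was called lower in the atlas (difference -2.44) and had a positive difference of 3.53 in the second set (adjusted p = 0.0698). Across the 4 lists, 66 of 91 genes were called higher in the atlas, beside 14.2% of all genes. Of the 90 tested in both sets, 50 were called higher in both, beside 4.78% of all genes.

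**Figure D3:**
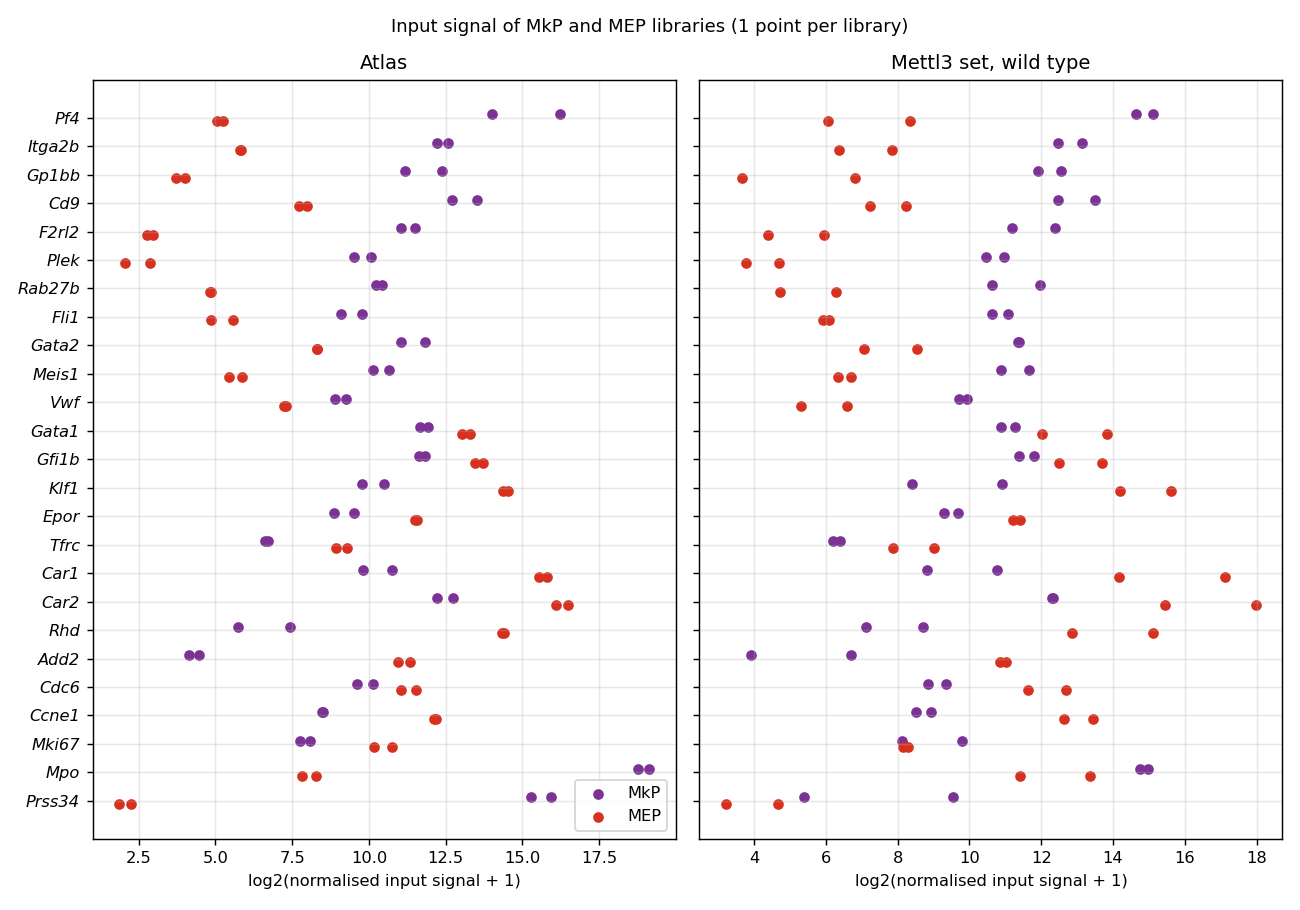
log2(normalised input signal + 1) of selected genes in the MkP and MEP libraries, with 1 point per library, in the atlas (left) and the second set (right, wild type of the Mettl3 experiment). Pf4, Itga2b and the other megakaryocyte genes lie higher in both MkP libraries of each set, Klf1, Car1, Car2 and Rhd lie lower, and Mki67 separates the types without overlap in the atlas but not in the second set.

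Transcription factor genes went both ways. Of 32 tested, 10 were called higher and 9 lower in the atlas, beside 14.2% and 14.6% of all genes, with a median of -0.22. Fli1, an ETS factor of megakaryocyte genes, read 878 and 538 in MkP and 46.2 and 27.8 in MEP, a difference of 4.22 (SE 0.28, limma adjusted p = 1.74e-11) and of 4.85 in the second set. Gata2, the GATA factor of stem and progenitor cells, read 3655 and 2134 against 313 and 313, differing by 3.15 and by 3.56. Meis1 (4.75 and 4.75), Mef2c (4.40 and 4.69), Erg (2.40 and 3.43) and Etv6 (1.79 and 2.99) were called higher in both. Runx1 was called in the atlas (1.15) and had an adjusted p of 0.0516 in the second set (2.08).

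Klf1, the factor associated with the red cell side, was among the 9 called lower. It read 870 and 1427 in MkP and 20948 and 23672 in MEP, a difference of -4.32 (SE 0.64, limma adjusted p = 1.14e-05) and of -5.24 in the second set (adjusted p = 0.0301). Bcl11a, a repressor of fetal globin, differed by -1.56 and -1.498 and was called in both sets. Gata1 read 3265 and 3926 against 8435 and 10074 (difference -1.36, adjusted p = 0.0163). This call was lost without MkP replicate 1 (adjusted p = 0.0971) or MEP replicate 2 (0.111), and the second-set difference of -1.84 did not pass the test. Gfi1b, a repressor that acts in both lineages, was called at -1.84 in the atlas and stood at -1.51, without a call, in the second set. Nfia read 69.0 and 34.2 against 2455 and 4670, a difference of -6.09, and differed by -1.70 in the second set (adjusted p = 0.266). Nfe2 (0.84), Zfpm1 (-0.29), Tal1 (-1.10), Lmo2 (0.31) and Myb (-0.22) did not pass the test in the atlas.

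Among the 16 atlas types, Pf4, Itga2b, Gp1bb, F2rl2, Ppbp, Gata2 and Vwf had their highest mean in MkP. Some other megakaryocyte genes had higher means in other types. Cd9 had its highest mean in Monocyte libraries (36220 to 52810) and ranked 3 of 16 in MkP (6708 to 11850), after Neutrophil. Plek was also highest in Monocyte libraries (1633 to 2114), with MkP ranked 3 (734 to 1074), and so was Ptgs1 (1545 to 1686), with MkP ranked 2 (1239 to 1353). Selp ranked highest in LT.HSC, with MkP ranked 4, and Fli1 in B_cell, with MkP ranked 7. For Vwf the next type, LT.HSC, overlapped MkP (302 to 508). Meis1 ranked highest in LT.HSC. Gata1, Gfi1b, Klf1 and Epor ranked highest in Erythroid libraries and next in MEP, with MkP following MEP for Gata1, Gfi1b and Epor. Car1, carbonic anhydrase 1, had its highest mean in MEP (57506 and 48174), ahead of Erythroid (37310 to 39340).

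Genes of haem synthesis were lower in MkP. Of 18 tested, 15 were called lower and 2 higher, with a median of -1.96. Fech, the ferrochelatase that inserts iron into haem, read 745 and 575 in MkP and 3936 and 4081 in MEP, a difference of -2.61 (SE 0.38) and of -3.22 in the second set. Alad (-2.43 and -3.29), Ppox (-1.61 and -1.75) and Slc25a38, a mitochondrial glycine carrier (-2.66 and -2.69), were called lower in both sets. The 2 members called higher were Alas1, the form of the first enzyme used in most tissues (8312 and 6161 against 387 and 426), and Hmox1, which degrades haem. Neither passed the test in the second set. Alas2, the red cell form of that enzyme, read 1.03 and 1.46 against 69.6 and 153.

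Of 6 globin genes tested, 4 were called lower. Hba-a1 read 95.2 and 219 in MkP and 4778 and 8053 in MEP, a difference of -5.41. The adult alpha genes are near-identical copies of each other, as are the beta genes, so their separate values are uncertain. Among second-set values 0 of 4 globin genes passed the limma test, with a median of -1.7.

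Red cell surface and membrane genes gave 21 of 26 called lower and 0 higher by limma, with a median of -4.7. Rhd, a gene of the Rh blood group family, read 52.0 and 170 in MkP and 20487 and 21769 in MEP. It differed by -7.80 (SE 0.59, limma adjusted p = 2.34e-10) and by -6.08 in the second set. Ermap, an erythroblast membrane protein, read 15.4 and 30.6 against 13464 and 13888, a difference of -9.23. Its second-set difference was -4.62 with an adjusted p of 0.0849. Kel (-4.86 and -5.80), Rhag (-6.16 and -5.49), Add2 (-6.84 and -5.63), Car1 (-5.40 and -5.85) and Car2 (-3.81 and -4.40) were called lower in both sets. Ank1, the ankyrin of the red cell skeleton, read 0.515 and 0.728 against 307 and 293 in the atlas and did not pass the test in the second set (-2.58, adjusted p = 0.329). Tfrc, the transferrin receptor, was called lower by -2.45. Epor, the erythropoietin receptor, read 469 and 723 against 2865 and 3020 with an adjusted p of 0.0512. It passed the threshold with edgeR (0.000482), with DESeq2 (1.67e-05) and under 4 of the other settings tried. Across the haem, globin and red cell lists, 40 of 50 genes were called lower in the atlas, beside 14.6% of all genes. Of the 48 tested in both sets, 16 were called lower in both, beside 1.8% of all genes.

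Promoters of genes from both sides are shown because GATA factors are known regulators of both lineages. Each sequence runs 5′ to 3′ on the gene's strand, from 250 bases before to 50 after the start site, and comes from RefSeq with build GRCm38.p6. Capitals mark AGATAA or TGATAA, forms of the GATA motif; on the opposite strand TGATAA appears as TTATCA.
Pf4, chr5:90772185-90772484, plus strand: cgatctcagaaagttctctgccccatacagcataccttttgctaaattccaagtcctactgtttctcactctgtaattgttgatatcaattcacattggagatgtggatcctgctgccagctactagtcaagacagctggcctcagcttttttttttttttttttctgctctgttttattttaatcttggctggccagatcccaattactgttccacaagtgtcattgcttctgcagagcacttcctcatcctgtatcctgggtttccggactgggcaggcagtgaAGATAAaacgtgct
F2rl2, chr13:95696670-95696969, plus strand: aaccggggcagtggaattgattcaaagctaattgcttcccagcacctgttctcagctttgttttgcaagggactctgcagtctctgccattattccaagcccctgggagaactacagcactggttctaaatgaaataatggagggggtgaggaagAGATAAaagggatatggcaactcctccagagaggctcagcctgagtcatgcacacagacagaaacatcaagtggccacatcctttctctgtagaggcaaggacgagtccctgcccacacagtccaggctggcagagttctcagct
Klf1, chr8:84901732-84902031, plus strand: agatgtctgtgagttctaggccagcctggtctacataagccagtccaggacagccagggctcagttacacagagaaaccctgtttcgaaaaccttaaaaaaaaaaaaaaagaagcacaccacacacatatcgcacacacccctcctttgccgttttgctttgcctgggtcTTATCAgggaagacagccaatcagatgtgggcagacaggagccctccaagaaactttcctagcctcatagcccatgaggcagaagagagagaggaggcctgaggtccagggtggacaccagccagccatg
Rhd, chr4:134864286-134864585, plus strand: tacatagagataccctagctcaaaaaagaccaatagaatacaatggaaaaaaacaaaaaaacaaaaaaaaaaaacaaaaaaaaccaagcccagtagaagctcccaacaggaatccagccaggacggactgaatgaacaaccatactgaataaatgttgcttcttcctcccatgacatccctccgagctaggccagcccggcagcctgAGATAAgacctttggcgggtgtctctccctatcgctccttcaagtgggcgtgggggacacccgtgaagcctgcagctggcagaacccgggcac
Kel, chr6:41704276-41704575, minus strand: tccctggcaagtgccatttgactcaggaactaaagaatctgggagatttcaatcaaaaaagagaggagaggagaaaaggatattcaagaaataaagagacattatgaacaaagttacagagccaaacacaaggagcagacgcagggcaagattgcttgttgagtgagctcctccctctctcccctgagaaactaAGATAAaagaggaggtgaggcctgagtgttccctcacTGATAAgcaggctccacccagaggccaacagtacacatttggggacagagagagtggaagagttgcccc

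These 5 were picked because they hold the motif, so they do not describe the named genes as a whole. One of the GATA motifs, on either strand, was in 18.6% of all 32851 promoters of the table. Some genes have more than 1 promoter in the table, and some of these windows overlap. The 19 matched named genes called higher had 22 promoters, of which 5 held the motif, and the 13 matched genes called lower had 20, of which 6 held it. An ETS motif, CAGGAAG or CCGGAAG on either strand, was in 20.9% of all promoters, in 7 of those 22 and in 2 of those 20. No GATA match overlapped an ETS match in the named genes. The motif begins 95 bases before the start site in F2rl2, 80 before in Klf1, 43 before in Rhd, and 56 and 19 before in Kel. In Pf4 it begins 37 bases after the start site. A match is a description of letters, and binding was not measured.

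By the rule for naming, the 12 genes with the largest positive atlas differences were Prss34, Prg2, Epx, Mcpt8, Ltf, Mpo, Camp, Cebpe, Chil3, Ppbp, Fcnb and Elane. All but Ppbp are known from granulocytes, eosinophils, basophils or their precursors. Prg2, the major basic protein of eosinophils, read 32288 and 39040 against 3.72 and 6.31 in the atlas. Its second-set values were 63.4 and 8.89 against 66.5 and 86.4, with both MkP libraries below both MEP libraries. Prss34, a basophil protease, read 39548 and 62164 against 3.72 and 2.63 in the atlas and 743 and 40.8 against 8.31 and 24.2 in the second set. Elane, the neutrophil elastase gene, differed by 10.11 in the atlas and by 3.21 (adjusted p = 0.346) in the second set. Of the 12, Ppbp alone was called in the second set. Within the atlas, the mean of Prg2 was highest in MkP, and its values overlapped those of GMP (13570 to 44070).

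The 12 genes with the largest negative differences were Igsf3, Ermap, Rpgrip1, Atp7b, Phyhip, Tulp4, Nags, Slc25a21, Rhd, Ank1, Sphk1 and Dnmt3c. Sphk1, which makes sphingosine 1-phosphate, read 27.8 and 72.8 in MkP and 7874 and 8399 in MEP, a difference of -7.46 and of -6.11 in the second set. Nags, the N-acetylglutamate synthase gene, read 1.03 and 0.728 against 458 and 504, and Slc25a21, a mitochondrial carrier, differed by -7.83 and -5.84. Nags, Slc25a21, Phyhip, Rhd, Sphk1 and Dnmt3c were called in both sets. Rpgrip1, known from photoreceptors, read 28.8 and 5.10 against 3828 and 11938 in the atlas, but 33.3 and 5138 against 11.1 and 339 in the second set, where its difference was 2.71 and did not pass the test. Tulp4 differed by -8.13 in the atlas and by -0.84 in the second set, where its adjusted p was 0.711.

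**Figure D4:**
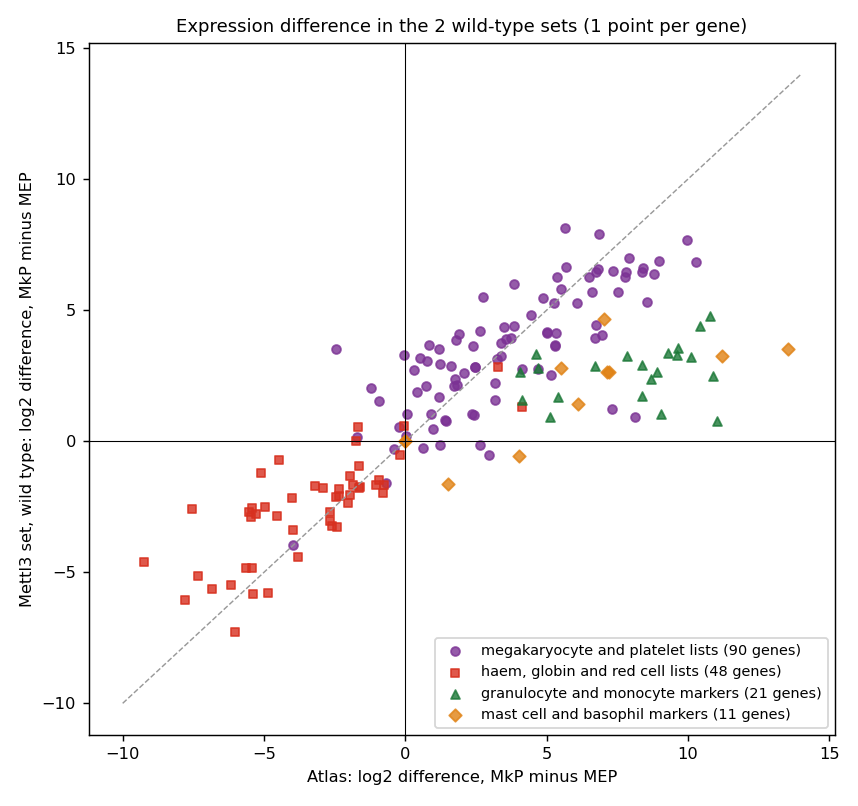
log2 difference, MkP minus MEP, of list members in the atlas (horizontal) and in the second set (vertical, wild type of the Mettl3 experiment), with 1 point per gene; the dashed line marks equal differences. Megakaryocyte and platelet genes lie mostly at upper right and red cell genes mostly at lower left, while the granulocyte and monocyte markers, with a median of 8.67 in the atlas and 2.78 in the second set, lie below the line.

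Genes called in both sets were also ranked by the smaller of their 2 differences, a rule chosen after the values were seen. Of the 691 genes called higher and the 260 called lower in both sets, 497 and 217 were kept for this ranking. Their means reached 50 and their types did not overlap in either set. Outside the lists, Slco4a1, an organic anion transporter, was among the 20 strongest of the higher genes (638 and 392 against 1.59 and 3.68 in the atlas, differences 7.17 and 5.76). Mrvi1, Serpinb10 and Nr0b2 were there too, reading 114 to 258 in the atlas MkP libraries and at most 2.10 in MEP. Among the lower genes, Pklr, the pyruvate kinase of red cells and liver, was in the same group (7.20 and 17.5 against 828 and 1105 in the atlas, differences -6.28 and -8.26). So were Plpp1, a lipid phosphatase (10.3 and 19.7 against 1341 and 1235 in the atlas, differences -6.40 and -8.96), and Slc38a5, an amino acid transporter (58.2 and 74.3 against 8281 and 9628 in the atlas, differences -7.06 and -5.52).

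Stem and progenitor genes gave 12 of 22 called higher and 1 lower, beside 14.2% and 14.6% of all genes, with a median of 1.94. Cd34, a surface marker of early progenitors, read 2601 and 1967 in MkP and 16.5 and 27.8 in MEP, a difference of 6.66, and of 1.83 in the second set. Mycn (5.86 and 4.77), Nkx2-3 (3.64 and 3.60) and Hoxb5 (1.86 and 4.47) were the others called higher in both sets. Slamf1, from the adhesion list and also a surface marker of stem cells, was called at 1.62 in the atlas and at 2.85 in the second set. Its atlas call was lost without MkP replicate 1, MkP replicate 2 or MEP replicate 1 (adjusted p from 0.0756 to 0.254). Mllt3 was the member called lower (36.02 and 40.0 against 597 and 522), and did not pass the test in the second set (-1.72).

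Cytokine receptor and JAK-STAT genes gave 10 of 23 called higher and 4 lower, beside 14.2% and 14.6% of all genes. Il3ra, the alpha chain of the interleukin 3 receptor (4.11 and 2.72), Socs1, an inhibitor of JAK signalling (4.55 and 3.33), and Stat3 (1.95 and 2.24) were called higher in both sets. Kit, the stem cell factor receptor, stood at the threshold (1.503, adjusted p = 0.0499). It lost its call without MkP replicate 1 (0.82, adjusted p = 0.440), without MEP replicate 1 (0.114) or without MEP replicate 2 (0.211). The call was also lost without a filter on low values (0.0971), without robust moderation (0.0553) and with a replicate block (0.0551). Csf2rb, the common beta chain of the interleukin 3 and GM-CSF receptors, read 477 and 245 in MkP and 5.31 and 5.25 in MEP, and its second-set difference was 0.15 (adjusted p = 0.948). Jak1, Il6st, Il1rl1 and Stat5b were called lower in the atlas, and none of these 4 passed the limma test in the second set.

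Of 24 DNA replication genes, 8 were called lower and 0 higher by limma, beside 14.6% and 14.2% of all genes. Their median was -0.626. Ccne1, cyclin E1, read 361 and 352 in MkP and 4706 and 4470 in MEP, a difference of -3.68 and of -4.32 in the second set. Cdc6, which licenses replication origins, differed by -1.42 and -3.06. These were the 2 replication genes called in both sets. Of 26 mitosis genes 4 were called lower (Mki67, Top2a, Anln and Kif11) and 2 higher (Kif23 and Racgap1). The lower count is near the 14.6% of all genes called lower, and the higher count is below the 14.2% called higher. Mki67, the Ki-67 proliferation antigen, read 268 and 216 against 1704 and 1156, but its second-set difference was 0.72 and did not pass the test. Of 13 cyclin D and CDK inhibitor genes tested, 2 were called higher and 2 lower in the atlas, near the 14.2% and 14.6% of all genes. Cdkn2d, a CDK inhibitor, was called higher in both sets (2.40 and 2.52). Cdk6, a kinase partner of D cyclins, was called lower in the atlas (-2.38) and stood at 2.03, without a call, in the second set. Of 20 ribosome biogenesis genes, 6 were called lower and 0 higher by limma, beside 14.6% and 14.2% of all genes. Nolc1 alone was called lower in both sets.

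Immediate early genes, which can rise during tissue handling, gave 6 of 15 called higher in the atlas and 0 by limma in the second set. Among all genes, 14.2% were called higher in the atlas and 6.27% in the second set. Fos read 53.0 and 72.8 against 0.531 and 1.05 in the atlas. In the second set it read 696 and 0.808 against 501 and 4.21, so that the libraries of each type differed more from each other than the types did.

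Genes of the m6A machinery showed few shared differences. Of 9 writer genes, 4 were called lower in the atlas, beside 14.6% of all genes. They were Wtap, Virma, Rbm15 and Zc3h13, which encode regulatory subunits. Rbm15 read 179 and 85.9 in MkP and 939 and 1455 in MEP (-3.23, SE 0.47). None of the 4 passed the limma test in the second set, where Rbm15 differed by 1.24. Mettl3, the catalytic subunit, read 514 and 1137 in MkP and 643 and 1324 in MEP, where the types overlapped and the difference of -0.27 did not pass the test. Neither eraser, Fto or Alkbh5, passed the test in either set. Among 14 readers, Igf2bp2 read 136 and 88.8 against 11.7 and 11.6, a difference of 3.14 (SE 0.64, limma adjusted p = 0.000473) and of 3.62 in the second set (adjusted p = 0.0416). Its mean in MkP was the highest of the 16 types, and LT.HSC came next (33.8 to 37.4). Monocyte (23.9 to 46.2) and GMP (19.0 to 42.3) libraries overlapped LT.HSC. Rbmx was the other reader called higher in the atlas, and 2 of 14 is near the 14.2% of all genes.

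m6A enrichment, the log2 IP value minus the log2 input value with each table scaled on its own, was called different between the types for few genes. Of 16578 genes tested, 7 (0.0422%) were called more enriched in MkP and 5 (0.0302%) less enriched, and 995 had an unadjusted p under 0.05. The 5 that met the rule for naming were Fam117a and Ift140, more enriched in MkP, and Arid5a, Decr2 and Emb, less enriched. Values for same-numbered libraries are given to show the spread. They were 2.96 and 3.05 in MkP and 0.44 and 0.55 in MEP for Fam117a, whose difference was 2.51 (SE 0.46, limma adjusted p = 0.0103). Arid5a, an RNA-binding protein, stood at -1.84 and -1.93 in MkP and 1.80 and 1.06 in MEP (difference -3.32, limma adjusted p = 0.00589). Emb, a membrane glycoprotein, stood at -0.19 and -0.59 in MkP and 1.74 and 1.31 in MEP. Ift140, of cilium transport, differed by 2.92 (limma adjusted p = 0.0481) and Decr2, a peroxisomal reductase, by -2.55 (0.0398). The types did not overlap for any of these 5, because the rule for naming required it.

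The counts of enrichment calls changed with the libraries and settings. They ran from 0 to 15 more enriched and from 1 to 17 less enriched when each of the 8 libraries was left out in turn. With the spread taken from the 8 libraries alone both were 0. None of the 5 named genes kept its call in every alternative analysis. All 5 lost it without IP MEP replicate 1 or without input MEP replicate 1 (adjusted p from 0.0647 to 0.277). Of the 12 called genes, 8 had an expression call in the opposite direction, 2 in the same and 2 none. The input value enters the expression difference and the enrichment difference with opposite signs, so these measures are not independent.

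**Figure D5:**
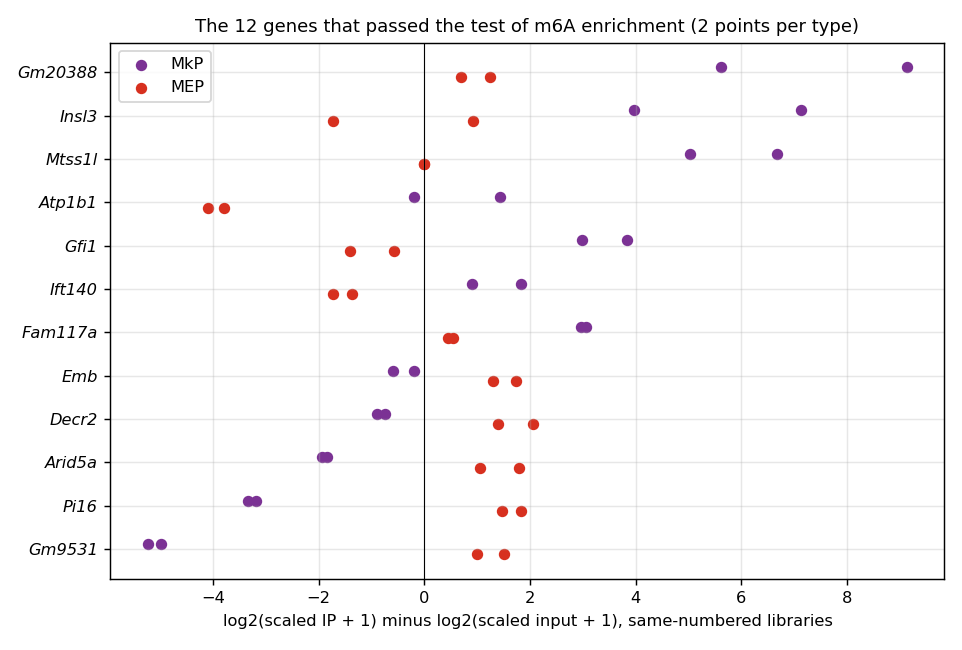
log2 scaled IP minus log2 scaled input (each plus 1) of the 12 genes called in the test of enrichment, in same-numbered libraries of MkP and MEP, with 2 points per type. The types do not overlap for any of the 12 genes, which were picked by the test on these same values. For Fam117a the points lie at 2.96 and 3.05 in MkP and 0.44 and 0.55 in MEP. Some points rest on the added 1. Mtss1l was at 0 in the MEP input and IP libraries. In the MEP IP libraries Atp1b1 was at 0 and 0 and Gfi1 at 0 and 0.799.

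In the second set 0 of 14222 genes (0.0%) were called more enriched by limma and 3 (0.0211%) less, with 1300 at an unadjusted p under 0.05. The median difference over all genes there was -0.944. Without IP MkP replicate 2 the counts became 9 and 601. All 12 atlas calls were tested in the second set, and none was called there. Of the 7 more enriched, 2 had a positive difference (28.6%, against 30.5% of all genes), and of the 5 less enriched, 4 had a negative one (80.0%, against 69.2% of all genes). Across the 13865 genes tested in both sets the differences correlated at r = 0.0171, a description across genes, which are not independent replicates.

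No gene of the 23 lists was called in the test of enrichment in either set. Of all genes, 0.0422% were called more and 0.0302% less enriched in the atlas, and 0.0% and 0.0211% in the second set. With so few calls, their absence from the lists does not set the lists apart from other genes. Pf4 stood at 2.11 and 1.11 in MkP and 2.12 and 2.05 in MEP, and its difference of -0.47 (SE 1.30) did not pass the test. Fli1 stood at 1.56 and 2.34 in MkP and 2.19 and 2.34 in MEP, Itga2b at -0.84 and -0.21 in MkP and -0.03 and -0.42 in MEP, and Klf1 at -1.69 and -1.60 in MkP and -2.05 and -2.03 in MEP. MkP and MEP overlapped for Pf4, Fli1 and Itga2b but not for Klf1. Slamf1 stood at -0.41 and -0.29 in MkP and 2.90 and 2.14 in MEP, a difference of -2.87 (SE 0.80, limma adjusted p = 0.173), and of 0.03 in the second set. Igf2bp2 differed by -3.001 (SE 1.03, adjusted p = 0.415) and by -2.86 in the second set, and neither passed the test.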

How the data were processed

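The MkP and MEP libraries of the atlas and of the wild-type part of the Mettl3 set were analysed, 2 libraries per group. Tools named in the submitters' processing notes are kallisto, Trimmomatic and fastp, with the build GRCm38; the sources used here give no versions or settings. The deposited input tables hold the authors' normalised signal per gene. Its values are whole multiples of what 1 read is worth (100% of values within 0.1 read), so reads could be recovered. The deposited atlas IP table holds raw counts, and the deposited IP table of the Mettl3 set holds expected counts, which were rounded to whole numbers.

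Expression was tested with limma 3.58.1 (R 4.3.3) on log2(value + 1) over all 32 atlas inputs, which share 1 estimate of the spread, for genes of at least 10 in at least 2 libraries, with trended, robust moderation. Enrichment was fitted over all 64 libraries after TMM scaling within each table, as the IP minus input difference of MkP minus that of MEP. The second set was fitted likewise over its 28 inputs and 56 libraries. Named genes were the 12 largest expression differences and up to 10 enrichment differences each way among called genes whose mean reached 50 and whose types did not overlap (models named Gm or Rik left out), a fixed set, and list members. The libraries, lists and fixed genes were chosen with earlier results of these data known. In simulated data with 4-fold changes, 90% were recovered in expression (15331 genes) and 49% in enrichment (15307 genes). Only genes whose mean reached 50 reads were changed there, and every gene had the same set spread. Alternatives were other pseudocounts, filters, scalings and spreads, edgeR 4.0.16 and DESeq2 1.42.0 on recovered reads, a replicate block, and leaving out each library. Some named items are not reported here.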

Additional observations from a re-analysis of the deposited data

How the results depend on the processing

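Of the 40 named genes called in expression, 36 kept their call under every alternative run. The exceptions were Vwf, Slamf1, Kit and Gata1, all from the fixed set. The genes named for the largest differences were picked from these same calls, among genes whose types did not overlap. All of those kept their call, which their selection favoured. The share of 36 of 40 therefore does not describe called genes in general. The counts of higher and lower expression calls ran from 1794 to 2003 and from 1620 to 2234 when 1 library was left out, and from 495 to 812 and from 81 to 453 in the second set. Enrichment was less stable, and the cause was not tested. More and less enriched genes numbered 18 and 17 with a pseudocount of 10 and 0 and 0 with the spread of the 8 libraries. More enriched genes numbered 4 without a filter, 3 with scaling by totals, 18 with median-ratio size factors and 16 with edgeR. They ran from 0 to 15 and less enriched genes from 1 to 17 when 1 library was left out. The second set's less enriched count was 0 with a pseudocount of 10, and leaving out 1 library gave 0 to 9 more enriched and 0 to 601 less enriched.

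Some differences that never passed the test changed sign. With 1 library left out, expression differences ran over Mettl3 -0.8443 to 0.3003, Myb -0.7302 to 0.2924 and Eng -0.3904 to 0.1114. Enrichment differences then ran over Gata1 -0.4021 to 0.4165, Runx1 -0.2902 to 0.3027, Cd9 -0.3474 to 0.387, Fli1 -0.6566 to 0.1619, Myb -0.7003 to 0.4324, Pf4 -1.459 to 0.6567, Myc -0.08436 to 0.4881 and Klf1 -0.031 to 0.8096. Scaling by totals gave Gata1 -0.03952 and Runx1 -0.04191 in enrichment, and Cd9 stood at 0.07474 with median-ratio size factors and 0.01996 with edgeR.

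Deviations of same-numbered libraries correlated at r = 0.0919 between MkP and MEP inputs, 0.0734 between their IP libraries, and 0.205 (MkP) and 0.11 (MEP) between input and IP. In the second set r was 0.152 between MkP and MEP inputs, and 0.072 (MkP) and 0.27 (MEP) between input and IP. Not every pair was above 0.1 and no label ties the numbers to a shared source, so they were taken to share only a number. With the replicate block the counts were 2433 and 2538 in expression, 5 and 4 in enrichment, 1115 and 536 in the second set's expression and 0 and 5 in its enrichment. Among named genes, the block left Kit in expression (adjusted p = 0.0551) and Ift140 (0.127), Decr2 (0.086) and Emb (0.064) in enrichment above the threshold, and put Epor (0.0456) below it. TMM moved the median expression difference by 0.1 against the authors' scaling, giving 2627 higher and 2299 lower genes. With 2 libraries per group, 49% of simulated 4-fold enrichment changes were recovered, which limits what the enrichment test can show. The simulated spread was the same for every gene and was not taken from these libraries. The share that would be recovered in the real data is therefore not known.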
